A study of Mus musculus with 8 samples.

Results

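The miR-297, miR-466, miR-467 and miR-669 families, most of whose hairpins lie in an intron of the mouse gene Sfmbt2, were measured by small RNA sequencing of splenic CD8+ T cells. Members were all microRNAs (miRNAs) whose hairpin precursor is named mir-297, mir-466, mir-467 or mir-669 and whose counts, summed over precursors, were above 0 over the 8 libraries. The rule found 69 members of the 1036 miRNAs with a count: 6 of miR-297, 28 of miR-466, 12 of miR-467 and 23 of miR-669. By arm of the hairpin, 32 were 5p, 30 were 3p and 7 had no arm in their name. A further 11 names of the families were at 0 in all libraries. CD8+ T cells are lymphocytes that recognise and kill infected or malignant cells. They came from C57BL/6 mice, an inbred laboratory strain, either neonatal (5 to 7 days old, 4 libraries) or adult (12 weeks old, 4 libraries), and were drawn from spleen with magnetic beads against CD8a. No genetic change or treatment is named for either group. Whether each library is a separate animal or a pool is not stated in the labels. The p-values below therefore reflect the scatter among these libraries alone, and that scatter may be technical.

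Sfmbt2 encodes a Polycomb group protein, one of the factors that hold genes in a silent state, and is an imprinted gene that is expressed from the paternal copy in early embryo and placenta. Its miRNA array is found in mouse and rat, where a unit of hairpins was copied many times in tandem, and deletion of the array or of its host gene impairs the mouse placenta. A hairpin is cut into a 5p and a 3p arm, and the arm loaded into Argonaute finds target messenger RNAs chiefly through its seed, bases 2 to 8. Copies that share an arm therefore yield the same mature miRNA from many places.

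Mature sequences were taken from RefSeq (GRCm38.p6), which matched 6 of the 69 members (8.70%). They are shown, with the seed in capitals, because they are the members with a sequence in the table, all from hairpins outside Sfmbt2, and because miR-466i-3p was tested.
miR-466i-3p: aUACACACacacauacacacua
miR-467f: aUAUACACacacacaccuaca
miR-466j: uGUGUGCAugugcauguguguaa
miR-466k: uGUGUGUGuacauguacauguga
miR-467h: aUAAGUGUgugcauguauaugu
miR-669n: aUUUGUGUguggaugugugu
These lie at chr13:17747552-17747573 (+), chr11:69635419-69635439 (-), chr10:60960802-60960824 (+), chr3:85467396-85467418 (+), chr9:115381898-115381919 (+) and chr3:115979905-115979924 (+). Each holds ACACAC or GUGUGU, which are reverse complements of each other. With miR-466q and miR-467g, names at 0 that also had a sequence, 8 of 8 held one of the motifs (4 each), against 20 of 1671 other mature sequences of the table (1.20%). The motif was searched as written, since a mature miRNA has only the given strand. None of the 8 shared a seed with another of them, and the seed of miR-467h was that of miR-668-5p. Among these 8 names, all from hairpins outside Sfmbt2, a common family name did not stand for a common seed. Seeds of members from inside Sfmbt2 were not available.

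Of 82 precursors, 71 lay inside Sfmbt2, on its strand (chromosome 2, 10370510 to 10595253, GRCm38). They were spread over 51617 bases, from 10466663 to 10518279, within a single intron (10461473 to 10523944), the tenth or the eleventh depending on the transcript. A further 10 precursors lay on other chromosomes, and mir-466a was not placed by name. Of the members, 57 came only from hairpins inside Sfmbt2, 7 only from hairpins outside, 3 from both, and 2 from mir-466a. Other miRNA genes that the annotation places inside Sfmbt2 without a name of these families were not analysed here, except Gm25285, which is mir-466c-3 under another name.

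Library totals were 1281033 to 2606637 counts, and a library held 51 to 61 of the 69 members. A count of 0 allows up to 3 counts, which is 1.15 to 2.34 CPM (counts scaled to a library of 1e6 counts) and covers counting error only. Of the non-zero values of the families, 11.4% were whole numbers (within 0.001), against 82.8% of all other miRNAs. Fractions arise where a read that fits several places is divided among them, although how the counts were made is not stated. In 4 sets, members kept a fixed ratio to each other in every library and cannot be told apart, namely the 3p arms of miR-297a, b and c, the 3p arms of miR-466b, c and p, the 3p arms of miR-669a and o, and the 5p arms of miR-669a and p. The 5p arms of miR-466b and o, and miR-466f with miR-466f-5p, had the same values on some precursors but not the same totals in every library. miR-467a-3p and miR-467d-3p moved within 4.26% of a fixed ratio. At a tolerance of 10%, the 29 members that passed the filter on low counts thus hold at most 25 separate measurements. Some members that were counted apart also had close values in every library. miR-466a-3p and miR-466e-3p had 83.7 and 88.4 counts over all libraries. miR-467b-5p had 1483.1 counts, and each copy of miR-467a-5p had 1355.3. Whether these pairs share reads was not tested, so the number of independent falls may be smaller.

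Most tested members of the array were lower in neonatal than in adult cells. Of the 29 tested members, 26 fell and none rose, with edgeR's quasi-likelihood test and a Benjamini-Hochberg adjusted p under 0.05 as the threshold, while 34.1% of all 375 tested miRNAs fell and 29.1% rose. The filter on low counts could be met by the adult libraries alone. Some of the members counted as lower entered only through that group, where they were high. Among them were miR-466h-5p, miR-466a-3p, miR-466e-3p, miR-669o-3p and miR-669e-5p, all included in the 26. With members of a shared-read set summed into 1 feature, 23 of 26 fell (32.9% of all features) and none rose (30.5%). The median log2 fold change, neonatal over adult, was -1.43 in the array, -0.05 over all tested miRNAs and 0.11 over the 346 others. The fall was at least 2-fold for 21 members, against 22.4% of all tested miRNAs. In 27 members every neonatal library was below every adult one, which held for 30.9% of all. By family, 7 of 7 tested miR-467, 10 of 11 miR-466 and 9 of 11 miR-669 members fell, with medians of -1.50, -1.14 and -1.45. With library totals in place of the scaling used here, 5 of 7, 4 of 11 and 9 of 11 fell, so the calls lost were in miR-467 and miR-466. The 3 tested members that did not pass were miR-669c-5p, miR-669h-5p and miR-466i-3p.

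These values are on the scale set by TMM, which brings libraries to a common level by a trimmed mean of their ratios. With library totals in place of TMM all fold changes moved up by 0.63 on average. The array's median was then -0.80 beside 0.58 for all tested miRNAs, with 18 members lower (18.1% of all tested) and 1, miR-669c-5p, higher (49.6%). The array was also low in GC: the hairpin side that holds the mature miRNA had a median GC content of 37.4% in 28 tested members and 50% in 345 other miRNAs. With an offset for GC, 22 members were lower (35.1% of all tested) and none higher (28.2%), with a median of -0.98.

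**Figure D1:**
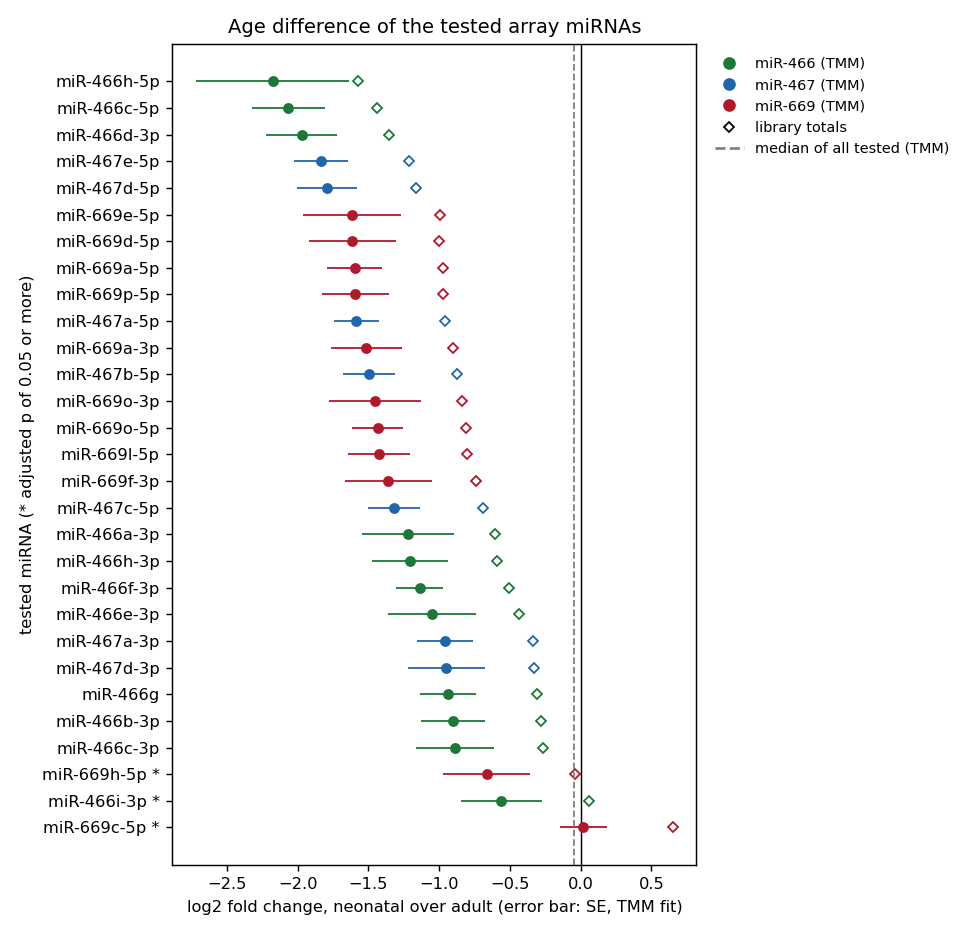
Log2 fold change, neonatal over adult, of the 29 tested members, with standard error (filled points, TMM scaling) and the same fold change under library totals (open diamonds); colours mark families, and asterisks the members with an adjusted p of 0.05 or more. All members except miR-669c-5p lie left of 0 under TMM, and all except miR-669c-5p and miR-466i-3p under library totals.

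Markers of lymphocytes and of several other cell types differed with age as well. Summed levels of miR-150-5p, miR-142a, miR-181a-5p and miR-342-3p, miRNAs of T and other lymphocytes, were 72937 to 75700 CPM in the neonatal and 143487 to 210073 CPM in the adult libraries. Of these, 4 of 5 were lower by edgeR, with a median log2 fold change of -1.34. Of all tested miRNAs 34.1% were lower and 29.1% higher, or 18.1% and 49.6% with library totals, so small counts of markers called higher say little alone. Erythroid markers were at 308 to 775 CPM in the neonatal and 120 to 252 CPM in the adult libraries (3 of 3 tested higher), endothelial ones at 125 to 160 and 46.6 to 77.0 CPM (2 of 2 higher), stromal ones at 115 to 170 and 38.2 to 83.8 CPM (3 of 3 higher) and the liver miRNA miR-122-5p at 745 to 1591 and 245 to 390 CPM (higher). Myeloid miR-223 was at 3.49 to 8.54 and 2.85 to 9.10 CPM, ranges that overlap, and was not tested. Of 10 pluripotent or placental miRNAs of the miR-290 and miR-302 families 7 were at 0, with at most 7 counts in any library for the others. The part of these cells in the age difference of the array was not tested. In bulk RNA, fewer cells of a type and less RNA per cell cannot be told apart.

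miR-467 had the highest mean level of the families in both age groups, although miR-669 exceeded it in neonatal library 1 (708 against 614 CPM). All 7 tested members fell. miR-467a-5p, the main product, is encoded by 10 copies of its hairpin and stood at 371, 462, 416 and 573 CPM in neonatal libraries 1 to 4 and at 1284, 1276, 1359 and 1549 CPM in adult ones. Every adult library was more than double the highest neonatal one. It was 3.00-fold lower in neonatal cells (log2 fold change -1.58 ± 0.16 (SE), edgeR's adjusted p = 3.69e-06). miR-467e-5p, from a single hairpin, stood at 64.0, 92.5, 104 and 121 CPM in the neonatal and 312, 364, 347 and 345 CPM in the adult libraries. It had the most negative value of the family, a 3.57-fold fall (-1.84 ± 0.19, adjusted p = 4.14e-06 by edgeR), with a wide gap between the groups. miR-467c-5p stood at 56.4, 67.3, 84.3 and 95.4 CPM in the neonatal and 186, 193, 188 and 192 CPM in the adult libraries, where the 4 values were nearly equal. It fell 2.49-fold (-1.32 ± 0.18, edgeR's adjusted p = 4.91e-05). miR-467d-5p (-1.79 ± 0.21) and miR-467b-5p (-1.50) also fell. The 3p arms, miR-467a-3p (-0.96 ± 0.20) and miR-467d-3p (-0.95 ± 0.27), fell with values nearer to 0, and nearly share their reads. Both lost the call with library totals (-0.34 and -0.33, edgeR's adjusted p = 0.117 and 0.264).

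**Figure D2:**
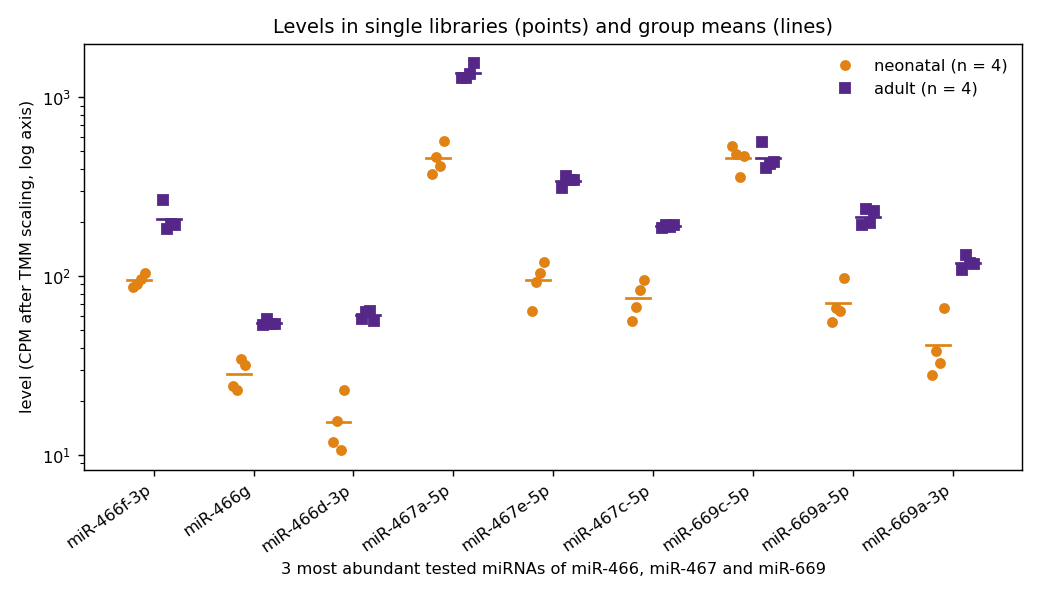
Level in CPM after TMM scaling (log axis) of the 3 most abundant tested members of miR-466, miR-467 and miR-669 in each library (points; neonatal orange, adult purple) with group means (lines, n = 4 each). The groups are apart for 8 of the 9 miRNAs and interleaved for miR-669c-5p, at 358 to 537 CPM in the neonatal and 402 to 561 CPM in the adult libraries.

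In miR-466, the 3p arm is the main product of most hairpins. miR-466f-3p, the most abundant member, came mainly from 1 of its 3 copies, mir-466f-2 (1984.9 counts of all libraries, against 58.7 and 203.4 for the other copies). Its levels were 87.7, 90.0, 97.2 and 104 CPM in the neonatal and 267, 183, 196 and 193 CPM in the adult libraries. Adult library 1 was above the other adult libraries, and the groups did not overlap. It fell 2.20-fold (-1.14 ± 0.17, edgeR's adjusted p = 8.15e-05), and by -1.04 without that library. miR-466d-3p stood at 11.8, 15.4, 10.7 and 23.2 CPM in the neonatal and 57.8, 63.6, 63.8 and 56.4 CPM in the adult libraries. The adult values were tightly grouped, and the fall was 3.92-fold (-1.97 ± 0.25, adjusted p = 2.53e-05 by edgeR). miR-466g, named without an arm, stood at 24.3, 23.3, 34.4 and 31.8 CPM in the neonatal and 53.4, 57.4, 54.2 and 54.2 CPM in the adult libraries. This 1.92-fold fall (-0.94 ± 0.20, edgeR's adjusted p = 0.00107) was lost with library totals (-0.31, adjusted p = 0.169).

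The most and the least negative changes of the called members were both in miR-466. miR-466c-5p stood at 10.7, 10.3, 16.6 and 14.7 CPM in the neonatal and 42.2, 74.9, 43.7 and 58.7 CPM in the adult libraries. Adult libraries differed among themselves but all lay above the neonatal ones, and the fall was 4.19-fold (-2.07 ± 0.26, edgeR's adjusted p = 2.14e-05). miR-466h-5p had the largest fitted fall, -2.18 ± 0.54 (adjusted p = 0.00341 by edgeR), on counts of 3.0, 7.5, 0.0 and 9.5 in the neonatal and 7.0, 16.0, 15 and 27.5 in the adult libraries. Its size is thus loosely set, since the neonatal libraries held few or no reads. At the other end, miR-466b-3p (-0.90 ± 0.22, adjusted p = 0.0034) and miR-466c-3p (-0.89 ± 0.27, adjusted p = 0.0118) share their reads, so they are 1 measurement, by edgeR. Both lost the call with library totals (adjusted p = 0.256 and 0.371) and with the GC offset (0.145 and 0.218).

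miR-466i-3p is the only tested member whose hairpin was placed outside Sfmbt2, in an intron of Cdk13 on the opposite strand (chromosome 13, 17747473 to 17747593). Its levels were 10.1, 9.63, 8.28 and 10.7 CPM in the neonatal and 22.8, 12.4, 11.6 and 12.2 CPM in the adult libraries. Adult library 1 stood apart, and the lowest adult library was close to the highest neonatal one. The fold change of -0.56 ± 0.29 did not pass edgeR's test (adjusted p = 0.105). It was -0.34 without adult library 1 and 0.06 with library totals. Its 5p arm, chosen after its values were seen, had 4.43, 6.01, 6.67 and 7.24 counts in the neonatal and 1.77, 1.80, 2.64 and 1.66 counts in the adult libraries and was too low to test. These few counts were higher in all neonatal libraries, the reverse of the array's direction.

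In miR-669, 9 of 11 tested members fell. miR-669a-5p, from 12 copies, stood at 55.8, 66.4, 63.8 and 97.8 CPM in the neonatal and 193, 238, 199 and 232 CPM in the adult libraries. Neonatal library 4 was the highest of its group and still well under the adult range, and the fall was 3.03-fold (-1.60 ± 0.19, edgeR's adjusted p = 1.85e-05). miR-669a-3p, the other arm, stood at 28.2, 38.4, 32.8 and 66.1 CPM in the neonatal and 108, 132, 118 and 117 CPM in the adult libraries. It showed the same order of neonatal libraries and a like fall (-1.51 ± 0.25, adjusted p = 0.000191 by edgeR). miR-669h-5p, at 5.21 to 5.66 CPM in the neonatal and 4.86 to 10.9 CPM in the adult libraries, had overlapping groups and did not pass (-0.66 ± 0.31, edgeR's adjusted p = 0.0753). Without adult library 1, its lowest adult value, it passed (-0.83, adjusted p = 0.0288).

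miR-669c-5p was the exception among abundant members. It came from a single hairpin and stood at 537, 480, 358 and 469 CPM in the neonatal and 561, 402, 426 and 432.9 CPM in the adult libraries. The groups were interleaved, and the log2 fold change was 0.02 ± 0.17 (edgeR's adjusted p = 0.927). Over other ways of scaling, testing and leaving out libraries, the value ran from -0.03 to 0.65, and it passed as higher with library totals (adjusted p = 0.00338) and with a GC offset in a fit blocked on replicate number (0.38, adjusted p = 0.0158). The opposite arm, miR-669c-3p, had no count in any library.

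The makeup of the array differed between the ages. miR-669c-5p made up 35.4, 28.6, 23.3 and 23.2% of array counts in neonatal libraries and 14.4, 10.6, 11.1 and 10.6% in adult ones. This share does not depend on the scaling of libraries, and the groups did not overlap. miR-467 made up 40.5 to 49.5% in the neonatal and 56.6 to 60.9% in the adult libraries, again with no overlap. miR-466 held 12.1 to 14.2% and 11.9 to 14.2%, ranges that nearly coincide. Shares are parts of a common total, so the larger neonatal share of miR-669c-5p by itself lowers the neonatal shares of the other families. The shares of miR-467 and miR-466 therefore do not show how these families stood to the rest of the array. The array as a whole was 0.195 to 0.235% of all counts in the neonatal and 0.298 to 0.332% in the adult libraries. Its summed level after TMM scaling was 1689 ± 236 CPM (SD, n = 4) in the neonatal and 3901 ± 130 CPM in the adult libraries, 2.31-fold lower in neonatal cells. By family, the summed level was 2.93-fold lower for miR-467, 2.35-fold for miR-466, 2.24-fold for miR-297 and 1.58-fold for miR-669, or 2.84-fold for miR-669 without miR-669c-5p. The array without miR-669c-5p was 2.80-fold lower, near the value of miR-467 and above that of miR-466. With library totals the log2 differences were -0.92 for miR-467, -0.61 for miR-466, -0.55 for miR-297 and -0.031 for miR-669. The miR-297 groups overlapped, at 6.94 to 13.2 CPM in the neonatal and 11.9 to 27.5 CPM in the adult libraries. Adapter ligation favours some sequences, so shares describe counts and not molecules.

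**Figure D3:**
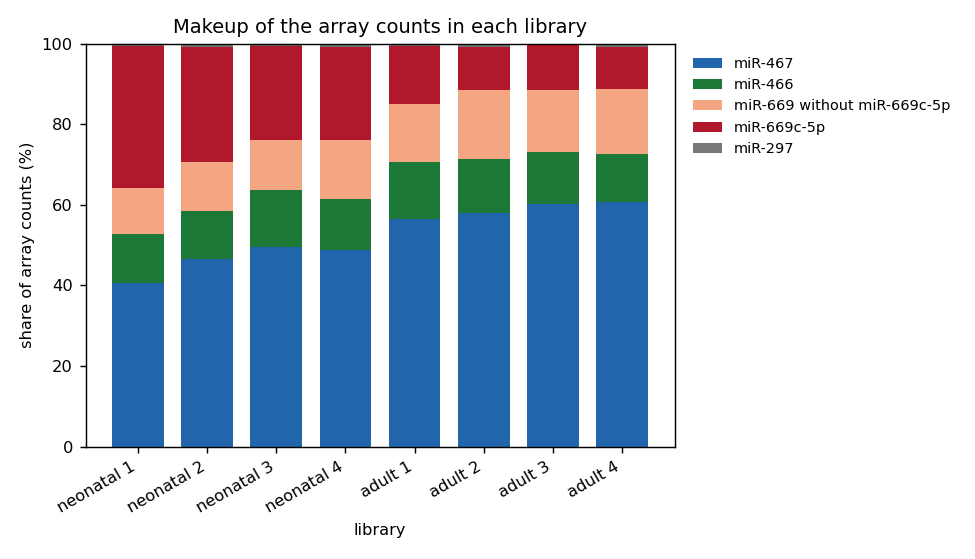
Share of array counts in each library (stacked bars to 100%) held by miR-467, miR-466, miR-669 without miR-669c-5p, miR-669c-5p and miR-297. The miR-669c-5p band takes 23.2 to 35.4% in the neonatal and 10.6 to 14.4% in the adult libraries.

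No miR-297 member passed the filter. The 6 members held 233.8 counts in all, 0.556% of the array. miR-297b-5p, the highest untested member, had 2.0, 7.0, 5.0 and 21.0 counts in the neonatal and 6.0, 28.2, 9.0 and 24.0 counts in the adult libraries, with overlapping groups. miR-466b-5p had 4.70 to 13.0 and 4.77 to 11.8 counts, and miR-297a-5p 4.0 to 9.99 and 3.0 to 17.0 counts, which also overlapped. In all, 40 members were not tested, with totals of 0.2 to 102.2 counts over the 8 libraries, 21 of them under 10 counts. Together they held 1.81% of array counts. A member passed the filter only where enough libraries had counts, and adult libraries alone were enough, so the 29 tested do not stand for all 69.

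Along the intron, the copies form an array in which mir-467a, mir-669a and mir-466 hairpins recur. The first, middle and last of 3 equal stretches held 31.5, 27.7 and 40.0% of array counts. Summed levels were 2.66-fold, 2.85-fold and 1.82-fold higher in adult than in neonatal libraries. The last stretch contains mir-669c, at 42.6 kb from the first hairpin, with 461 ± 74.7 CPM in the neonatal and 456 ± 71.7 CPM in the adult libraries. The hairpins on either side had adult values above the neonatal ones. The nearest before it, mir-297c at 42.4 kb, stood at 0.918 ± 0.266 and 2.19 ± 0.796 CPM, on only 23.5 counts over all libraries. The next before that, mir-467d at 41.0 kb, stood at 31.4 ± 5.45 and 98.6 ± 15.4 CPM. mir-669a-2, at 43.5 kb, stood at 9.67 ± 3.08 and 28.8 ± 2.64 CPM, though its reads are shared with the other copies of mir-669a. Values of identical copies are equal shares of the same reads, so the level of a single copy was not measured.

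**Figure D4:**
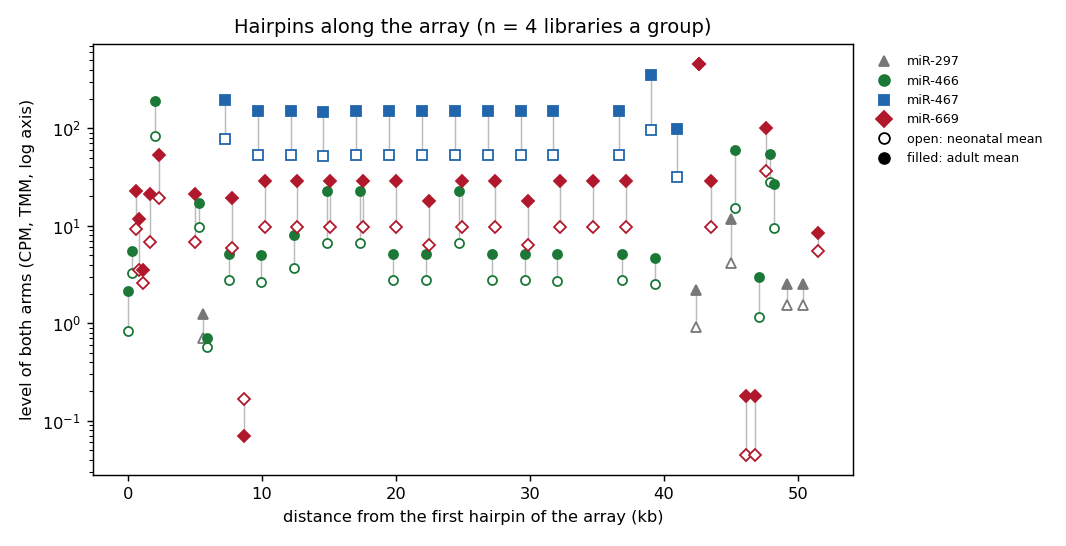
Mean level of both arms of each hairpin inside Sfmbt2 (CPM after TMM scaling, log axis; open neonatal, filled adult, n = 4 each) by distance from the first hairpin in kb, coloured by family. The symbols for mir-669c at 42.6 kb coincide, while hairpins around it show the adult value above the neonatal one; equal heights along the row are copies that share reads.

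Which arm was the larger went with the family. Among 64 hairpins with at least 10 counts, the 5p arm was the larger in 14 of 14 mir-467 and 22 of 23 mir-669 hairpins, and the 3p arm in 19 of 23 mir-466 hairpins, copies included. Of 4 mir-297 hairpins, mir-297b had more 5p and mir-297c more 3p counts, and mir-297a-3 and mir-297a-4 had 15.5 and 15.6 counts of the arms. Summed over the array, 5p arms were 80.2 ± 1.32% (SD, n = 4) of counts in the neonatal and 80.4 ± 1.56% in the adult libraries, a difference within the spread. By arm, 13 of 15 tested 5p members (median -1.59) and 12 of 13 tested 3p members (median -1.14) fell, against 34.1% of all tested miRNAs. With library totals 13 of the 5p and 5 of the 3p members fell, against 18.1%, and 1 of the 5p members rose.

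Within single hairpins, the log2 ratio of 5p to 3p counts was tested with limma over 120 hairpins of the table, of which 26.7% had a lower ratio in neonatal cells. That share takes every copy as a hairpin and includes the array, so the 10 equal copies of mir-467a raise it. The array's 24 tested hairpins hold 5 different sets of values, of which 2 passed. These are not 5 independent measurements, since mir-669a and mir-669o share their 3p reads, as mir-467a and mir-467d nearly do. For mir-467a (10 equal copies) the ratio was 2.74, 2.61, 2.56 and 2.58 in the neonatal and 2.93, 3.35, 3.19 and 3.49 in the adult libraries. The groups did not overlap, and the 5p excess was smaller in neonatal cells by 0.62 ± 0.17 (limma's adjusted p = 0.0158). The adjusted p rose past the threshold in a fit blocked on replicate number (0.0625), with equal hairpins counted once (0.0884) and without adult library 2 (0.0534). For mir-467d the ratio was 1.85, 1.55, 2.08 and 1.55 in the neonatal and 2.44, 2.66, 2.79 and 2.33 in the adult libraries. It also had no overlap and differed by -0.80 ± 0.19 (limma's adjusted p = 0.0124, and 0.0154 with the block). With counts summed per miRNA name, where 19.5% of 82 pairs of arms had a lower ratio, miR-467d did not pass (adjusted p = 0.0548 by limma). Both hairpins rest on 3p reads that they nearly share, so they are not independent.

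Of the other hairpins none passed. Summed per miRNA name, miR-466c had a lower ratio in neonatal cells, with no overlap between the groups (-1.12 ± 0.37, limma's adjusted p = 0.0241), on 3p reads shared with miR-466b-3p. For mir-466h, in which 3p reads prevail, the difference was -1.53 ± 0.79 (limma's adjusted p = 0.182), which passed with the block (0.019). Neonatal library 3, with no 5p read, set the lowest ratio, -4.86. For mir-669a the ratio was 0.66 ± 0.17 (SD, n = 4) in the neonatal and 0.71 ± 0.10 in the adult libraries, a difference of -0.05 ± 0.13 (SE). For mir-669o it was 3.13 ± 0.41 and 3.01 ± 0.19, a difference of 0.12 ± 0.23. Neither difference exceeded the spread between libraries (limma's adjusted p = 0.784 and 0.75).

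**Figure D5:**
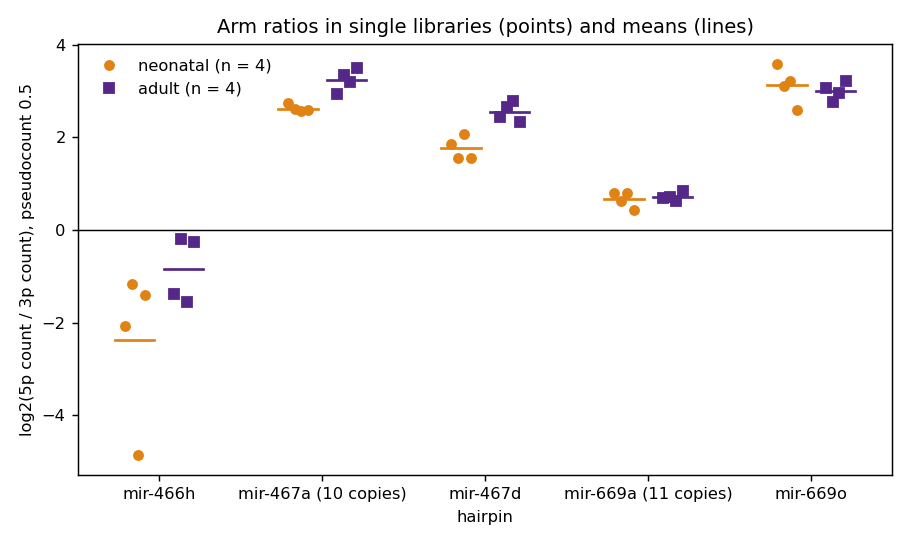
Log2 ratio of 5p to 3p counts (pseudocount 0.5) in each library (points; neonatal orange, adult purple) with group means (lines, n = 4 each) for the 5 hairpins with different values; above 0 the 5p arm prevails. Groups are apart for mir-467a and mir-467d and overlap for mir-466h, mir-669a and mir-669o.

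The Dlk1-Dio3 region on chromosome 12, another large imprinted miRNA cluster of mouse, did not move the same way. Of 94 names of its miRNAs 41 had a count and 10 were tested. Of these, 9 were higher (29.1% of all tested miRNAs were) and 0 lower in neonatal cells by edgeR, with a median log2 fold change of 1.47 beside -1.43 for the Sfmbt2 array. Its summed level was 205 to 283 CPM in the neonatal and 92.8 to 117 CPM in the adult libraries. Here the filter on low counts could be met by the neonatal libraries alone, so the 10 tested do not stand for all 41. The difference between the clusters was not tested.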

How the data were processed

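For 8 small RNA libraries (4 neonatal, 4 adult), the table that the authors deposited holds estimated counts for each pair of mature miRNA and precursor, with no normalization. Per the submitters' processing notes the build was mm10. Which aligner, counter and miRNA release made the counts is not stated in the sources. Estimated counts were summed over precursors and rounded to whole numbers. Members, lists, tests and the naming rule were chosen with earlier results of these data known.

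miRNAs were kept by filterByExpr (minimum count 10, minimum total 15), which left 375, and tested by quasi-likelihood in edgeR 4.0.16 (R 4.3.3), under TMM scaling and robust dispersions, with age as the only term. p-values were adjusted by Benjamini-Hochberg over all tested miRNAs, at 0.05. CPM are scaled by TMM unless stated. Arm ratios, log2((5p count + 0.5)/(3p count + 0.5)), were tested with limma 3.58.1 with a trend on abundance. Both scripts' tests were tested on simulated data. Summed levels had no test. Further settings were DESeq2 1.42.0, limma-voom, other scaling, filters and counting units.

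Named members were, per family, the 3 most abundant tested, then the 5 most negative and 5 most positive changes, tested members not called, hairpins with a tested arm ratio, the 3 highest untested members and tested members outside Sfmbt2. Others appear as members of shared-read sets.

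Replicate numbers 1 to 4 in the labels are not explained there. Deviations from group means gave r = 0.256 to 0.415 for the 4 same-numbered pairs, each over 0.1, and up to 0.482 for unlike-numbered ones. This check does not show that numbers pair libraries, since the highest r was for neonatal library 4 with adult library 2. Pairs of odd with odd or even with even numbers all had positive r. Pairs of odd with even numbers were all negative (-0.110 to -0.533). The reported fits are unblocked, and blocking on the number was tried as another setting. Hairpin positions came from GENCODE vM21 and RefSeq, equal for 81 of 81 placed precursors. GC content came from GENCODE hairpin sequences (5p or 3p side), found for 373 of 375.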

Additional observations from a re-analysis of the deposited data

Results flagged for a closer look

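Of 68 sets of 4 libraries (each tested member and each separate arm ratio at each age), 3 had a library far from the others, judged by its gap to the nearest library over the range of the set, all in adult cells. Chance alone gives about 1 in 20. miR-466f-3p stood at 267 CPM in adult library 1 and at 183 to 196 CPM in the other adult libraries. miR-466i-3p stood at 22.8 CPM in the same library and at 11.6 to 12.4 CPM in the others. miR-669o-5p stood at 102 CPM in adult library 4 and at 84.0 to 86.3 CPM in the others. Without that library miR-669o-5p still fell (-1.33, against -1.43 with it).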

How the results depend on the processing

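The number of lower members was 18 with library totals, 21 of those with at least 10 CPM in 4 libraries, 22 with the GC offset, 21 with the GC offset and replicate block, and 23 to 26 under RLE scaling, TMM factors without the array, DESeq2, limma-voom, no filter, rounding down, single entries and shared-read sets. It was 25 in libraries 1 and 3 and in libraries 2 and 4 of each group, and ran from 25 to 29 when 1 library was left out. The set of tested members changed with the filter and the libraries, so these counts can include members outside the 29 of the main fit. A count of 29 thus does not mean that all of those 29 were lower. Shares over all miRNAs are given above for library totals, the GC offset and shared-read sets only. The counts under the other settings therefore cannot be set against all miRNAs. Of the 26 calls, 8 were lost with library totals, 3 with the GC offset, and 4 each without a filter and in libraries 2 and 4. The number of higher members was 1 with library totals and 1 with the GC offset and replicate block, both miR-669c-5p, and otherwise 0. The replicate block changed no member's call (26 lower), and among arm ratios it changed mir-467a and mir-466h only. The count of lower separate arm ratios was 0 in libraries 1 and 3 of each group, 1 with identical hairpins counted once, and 1 to 2 with 1 library left out (1 without adult library 2).

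With library totals the summed log2 difference was -0.58 for the array, -0.55 for miR-297, -0.61 for miR-466, -0.92 for miR-467, -0.031 for miR-669, -0.59 for 5p arms and -0.58 for 3p arms. Values that changed sign were not called under either setting. They were miR-466i-3p (0.062 with library totals, 0.0073 with the GC offset, 0.033 with the block added), miR-669c-5p (-0.0040 with TMM factors without the array, -0.0012 in libraries 1 and 3, -0.026 to 0.14 with 1 library left out), the mir-669a arm ratio (0.15 in libraries 1 and 3, -0.095 to 0.028 with 1 library left out) and the mir-669o arm ratio (-0.14 in libraries 2 and 4, -0.12 with pseudocount 5, -0.030 to 0.30 with 1 library left out). The cause was not tested. Settings with hairpin GC, shared-read sets or 2 libraries a group were chosen after seeing the data. Pooling by identical mature sequence and GC of the mature sequence were not run, since 8.70% of members had a sequence. Low counts limit miR-297 and the 21 members under 10 counts.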
